A study of Mus musculus with 4 samples.

Results

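Neurotransmitter release depends on SNARE proteins, which sit on vesicles and on target membranes and zip together to fuse them, and on the proteins that time this step. The genes described here encode SNAREs, their regulators, the scaffolds of the active zone (the release site of a nerve terminal), synaptotagmins and the main membrane proteins of synaptic vesicles. They were chosen by gene symbol: the Syt, Stx, Stxbp, Vamp, Cplx, Rims, Syngr, Syn, Sv2 and Unc13 families, Snap23, Snap25, Snap29, Snap47, Snap91, Syp, Bsn, Pclo, Rph3a, Napa, Napb and Nsf, each where the platform annotation gave the probe set a single symbol. This rule used no measured value and found 182 probe sets of 76 genes among 45037 probe sets that were not controls. Of the 76 genes, 54 had more than 1 probe set.

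The series compared 2 neuron cultures with 2 astrocyte cultures from the cerebral cortex of C57BL6 mice, each read on 1 Affymetrix array. The neuron cultures were started from 16-day-old fetuses and, per the series description, kept for 7 days; soon after plating they were moved to a low-serum medium (1% fetal calf serum) that held 19.4 mM glucose and a supplement of progesterone, putrescine, transferrin, insulin and selenite. The astrocyte cultures were started from newborn mice and kept for 20 days in a medium that held 33 mM glucose and 10% serum. The protocol text, unlike the series description, names 1 culture period for both. Donor age, medium and time in culture therefore changed together with cell type and cannot be told apart from it. Nothing in the labels says how many animals gave each culture. The titles call the arrays biological replicates, and p-values measure only the spread between these arrays.

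A synaptic vesicle carries the SNARE Vamp2, the calcium sensor Syt1, synapsins, synaptophysin and SV2 proteins. Its SNARE pairs with Stx1a and Snap25 in the plasma membrane, complexins clamp the complex, Munc13 and RIM proteins prepare the vesicle for release, and Nsf with SNAP adaptors takes spent complexes apart. Other members of the same families serve traffic that all cells carry out: Snap23, Stx4a and Vamp3 in general exocytosis, and Stx5a, Stx6, Stx7, Stx8 and Stx18 between the endoplasmic reticulum, the Golgi apparatus and endosomes. Astrocytes are known to release some factors by exocytosis as well.

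The marker genes followed the labels, with signal of other cells in both cultures. All 10 neuron markers were higher in neurons (summed signal 23801 and 25074, against 1760 and 1547 in astrocytes). Astrocytes had the higher signal for 7 of 10 astrocyte markers, and neurons for 2 (Slc1a2 and Aldoc). The summed signal of the 10 was 8697 and 9998 in neurons and 19631 and 20072 in astrocytes. Slc1a2 (1832 and 1865) and Aldoc (2574 and 3422) were a large part of the neuron sums. Of the markers higher in astrocytes, Aqp4 (551 and 701), Slc1a3 (1138 and 1258) and Gja1 (1623 and 1715) also had signal on the neuron arrays. Gfap had 2 and 109 there, against 1744 and 2133 in astrocytes. Of 7 oligodendrocyte lineage markers with a probe set, 4 were higher in neurons and 1 in astrocytes (summed 4413 to 5322 in neurons, 4200 to 4597 in astrocytes). Olig1 alone had 2899 and 1895 in neurons and 3500 and 3997 in astrocytes. Pdgfra (1177 and 1302, against 19 and 21) and Mbp (420 and 431, against 16 and 16) were far higher in neurons. Markers of microglia (5 of 8 higher in astrocytes, none in neurons, summed 125 to 174 in neurons and 832 to 852 in astrocytes), fibroblasts and meninges (6 of 8 in astrocytes and 1 in neurons, 544 to 604 and 7487 to 7596), endothelial and mural cells (2 of 8 in astrocytes, 194 to 571 and 7396 to 8248) and ependyma (3 of 6 in astrocytes, 153 to 187 and 1077 to 1181) were low on the neuron arrays. Most of the endothelial and mural sum in astrocytes came from the smooth muscle genes Acta2 (4544 and 4791) and Tagln (2691 and 3331). Of the other genes in that list, Kdr and Rgs5 did not pass, and Pecam1, Cdh5, Cldn5 and Tek were too dim to be tested. Some markers lay at or under the background defined below. Mog and Pecam1 did so on all 4 arrays, Dcx (3 and 1) in astrocytes and C1qa (2 and 2) in neurons. The part these other cells had in the values below was not tested. In whole cultures, fewer cells of a type and less RNA per cell cannot be told apart.

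Of the 76 genes, 65 had a probe set bright enough to be tested: the signal reached the median of its array on 2 or more of the 4 arrays. The limma fit (adjusted p under 0.05, Benjamini-Hochberg over 25019 probe sets) called 36 of the 65 genes higher in neurons, where the share over all 12040 genes tested was 31.0%, and 15 higher in astrocytes, where it was 31.1%. At least 8-fold differences toward neurons were found for 18 members (3.89% of all genes), and at least 2-fold differences for 32 members toward neurons (18.0% of all genes) and 11 toward astrocytes (18.8%). Counted by probe set, 75 of 141 tested were higher in neurons (29.4% of all probe sets tested) and 33 in astrocytes (27.7%). The arrays of the groups did not overlap for 57 of the 65 (81.9% of all genes). The median log2 fold change (neurons minus astrocytes, as all fold changes here) was 0.95 over the 65 members and 0.02 over all genes. A gene that reached the test only through the culture where it is bright had to differ, so these shares describe the tested members and not the 76.

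Described by role, with differences between roles not tested, active zone genes (8 of 9 tested higher in neurons), vesicle proteins (9 of 10) and synaptotagmins (9 of 13, none higher in astrocytes) lay toward neurons, with median log2 fold changes of 2.80, 3.05 and 1.36. SNAREs of the plasma membrane and of vesicles were called in both directions. Of 9 plasma membrane SNAREs, 2 were higher in neurons and 4 in astrocytes (median -0.28). Of 6 vesicle SNAREs, 1 was higher in neurons and 4 in astrocytes (median -0.89). Of 8 syntaxins of the endoplasmic reticulum, Golgi and endosomes, 1 was higher in neurons and 2 in astrocytes (median -0.21). Of 10 regulators and recycling factors, 6 were higher in neurons and 3 in astrocytes (median 0.94). Over all genes tested, 31.0% were called higher in neurons and 31.1% in astrocytes. With so few genes, the counts of plasma membrane SNAREs and of the 8 inner syntaxins do not set them apart from all genes.

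**Figure D1:**
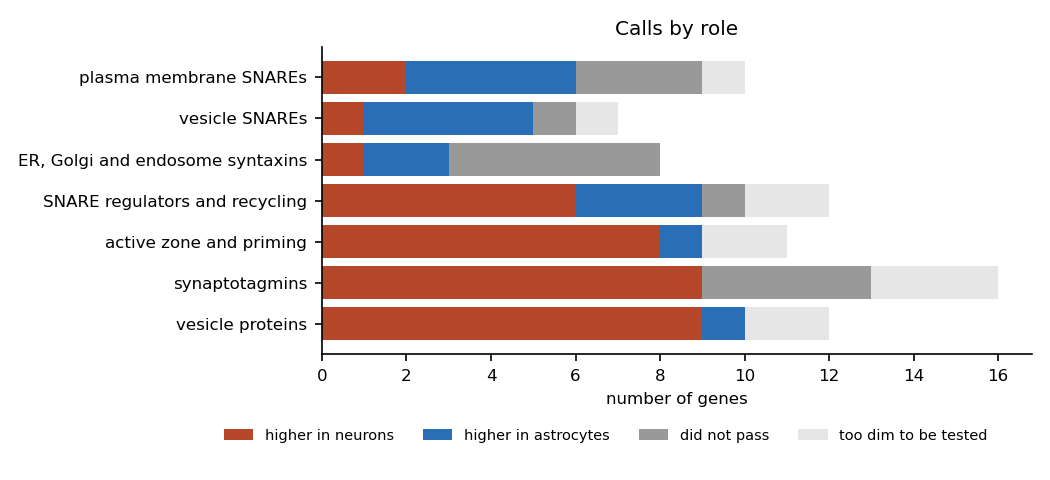
Number of genes per role (horizontal axis) called higher in neurons, called higher in astrocytes, tested without passing, or too dim to be tested. The bars for active zone genes, synaptotagmins and vesicle proteins are mostly neuronal (8, 9 and 9 genes), while plasma membrane and vesicle SNAREs have 4 genes each on the astrocyte side. Over all genes tested, 31.0% were called higher in neurons and 31.1% in astrocytes.

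**Figure D2:**
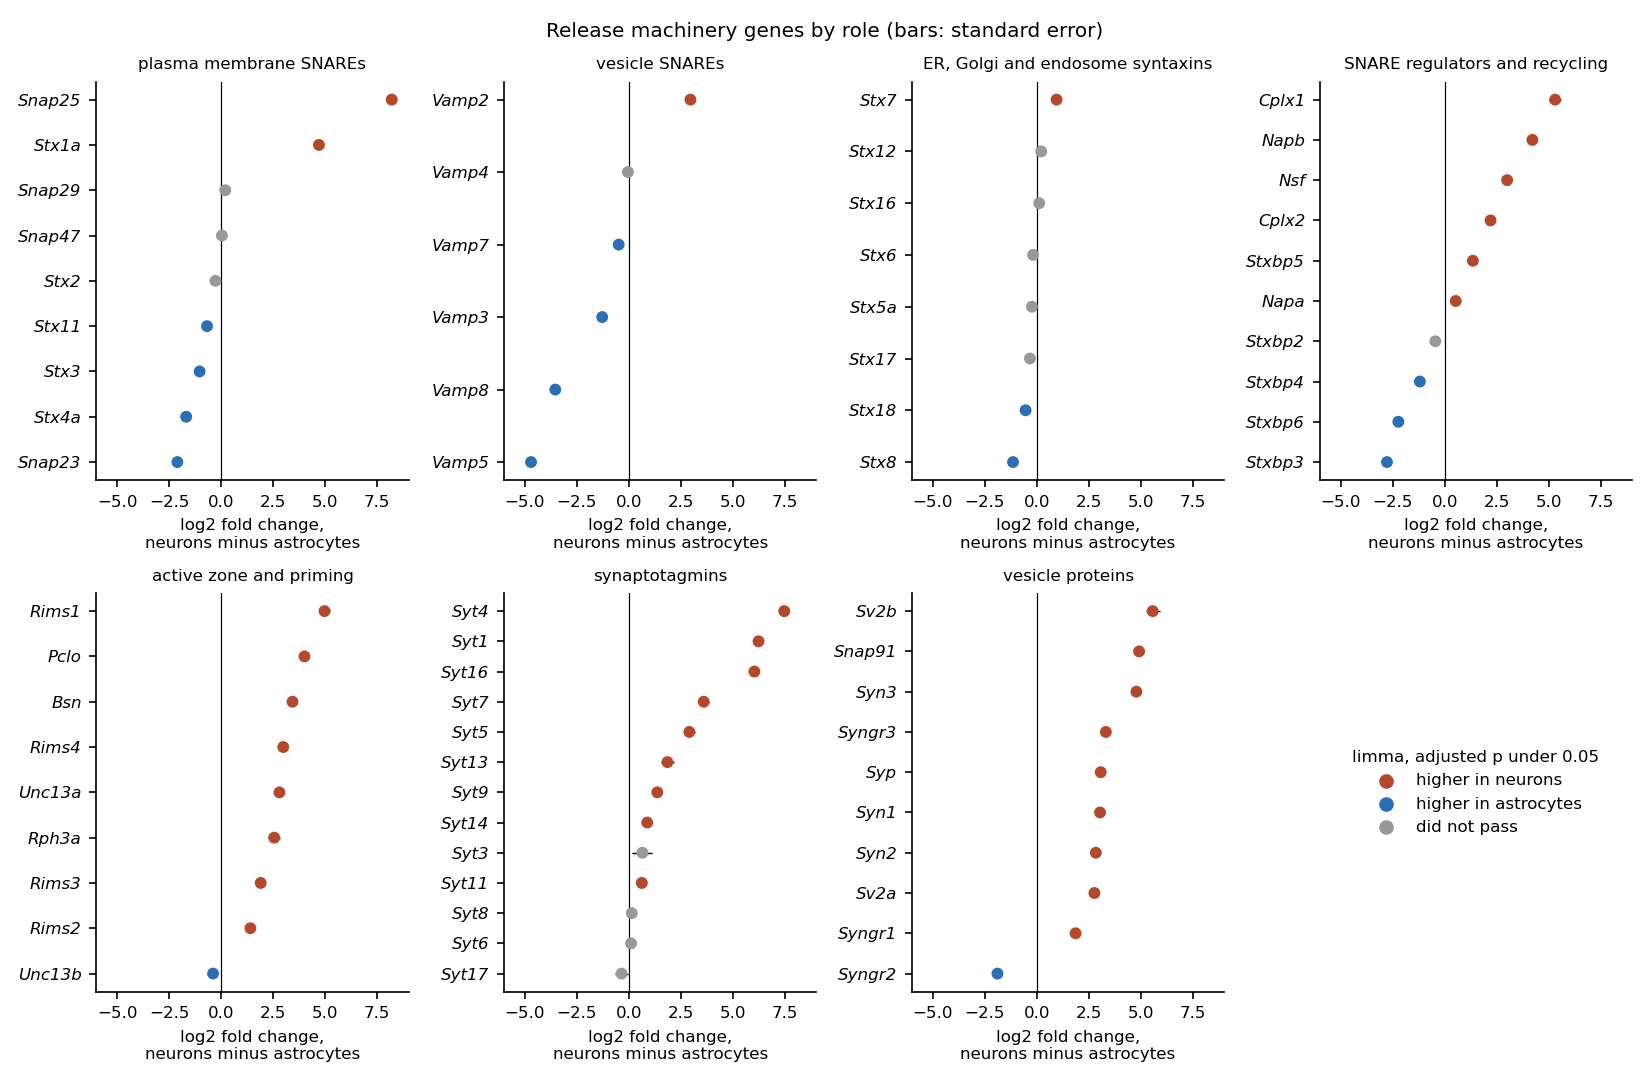
Log2 fold change, neurons minus astrocytes, of the 65 tested genes by role, with standard errors as bars (often smaller than the point) and colour for the call. The range runs from -4.71 (Vamp5) to 8.19 (Snap25).

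Related plasma membrane SNAREs went in opposite directions. Snap25, the neuronal partner of Vamp2, had signals of 4360 and 3813 in neurons, against 1 and 2 in astrocytes. Its relative Snap23, which serves exocytosis in most cells, had 66 and 87 in neurons and 427 and 318 in astrocytes. The arrays of the groups did not overlap for either gene, as for 81.9% of all genes. Snap25 was at least 255-fold higher in neurons (adjusted p = 9.81e-08) and Snap23 4.31-fold higher in astrocytes (log2 fold change -2.11 ± 0.20 SE, adjusted p = 3.71e-05), as in all 3 of its probe sets. An "at least" fold is used where both arrays of the dim culture lay at or under the background, which was the highest of 27 Bacillus subtilis control probe sets (21 and 23 on the neuron arrays, 17 and 15 on the astrocyte arrays).

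Stx1a, the syntaxin of the nerve terminal, had 2250 and 2182 in neurons, against 73 and 74 in astrocytes (log2 fold change 4.70 ± 0.13, adjusted p = 1.22e-07). The mean of both Stx1a probe sets was 4.02, and the other probe set alone had 3.35. Stx4a, the syntaxin of general exocytosis, had 153 and 110 in neurons and 389 and 508 in astrocytes (-1.68 ± 0.20, adjusted p = 0.000135). Stx11, a syntaxin known from immune cells, was dim, with 23 and 23 in neurons and 47 and 42 in astrocytes (-0.68 ± 0.23, adjusted p = 0.0326). The call for Stx11 was lost without any 1 of the 4 arrays, without the filter and with the replicate number as a block. A dimmer Stx11 probe set had 8 and 5 in neurons and 40 and 39 in astrocytes, in the same direction (at least 1.80-fold higher in astrocytes). Stx2 (66 and 90 in neurons, 104 and 89 in astrocytes) and the SNAREs Snap29 (99 and 72, against 68 and 77) and Snap47 (5494 and 5253, against 4892 and 5625) overlapped between the cultures and did not pass, with adjusted p of 0.293, 0.471 and 0.806.

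Stx3, a syntaxin of apical membranes and of ribbon synapses, was called in opposite directions by different probe sets. Its brightest probe set (1425536_at) had 90 and 138 in neurons and 241 and 244 in astrocytes (-1.04 ± 0.21, adjusted p = 0.00266). Another probe set (1425530_a_at) had 122 and 155 in neurons and 76 and 64 in astrocytes (0.87 ± 0.20, adjusted p = 0.0056). Their average was -0.09 (adjusted p = 0.695), and without either astrocyte array the brightest probe set missed the threshold. Stx3 is therefore counted above by 1 probe set that another contradicts.

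Among vesicle SNAREs, only Vamp2 of 6 tested genes was higher in neurons (31.0% of all genes were). Vamp2, the SNARE of synaptic vesicles, had 1617 and 1332 in neurons, against 179 and 179 in astrocytes (2.95 ± 0.14, adjusted p = 7.92e-07; 2.15 with its 2 probe sets averaged). Its closest relative in other cells, Vamp3, had 782 and 833 in neurons and 1954 and 2023 in astrocytes, a 2.44-fold excess in astrocytes (-1.29 ± 0.11, adjusted p = 1.94e-05), with 4 of 5 probe sets called. Both astrocyte arrays stood above background for Vamp2, whereas Snap25 was at or under background there.

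Vamp5 and Vamp8 leaned furthest toward astrocytes among all members. Vamp5, first described in muscle, had 3 and 3 in neurons and 358 and 431 in astrocytes, at least 17.9-fold higher in astrocytes (adjusted p = 5.4e-07). Vamp8, a SNARE of late endosomes and of regulated secretion, had 40 and 34 in neurons and 530 and 598 in astrocytes, 11.6-fold higher in astrocytes (-3.54 ± 0.17, adjusted p = 7.9e-07). On the same arrays 6 of 8 fibroblast and meningeal markers, 5 of 8 microglia markers and the smooth muscle genes Acta2 and Tagln were also higher in astrocytes, while Pecam1, Cdh5, Cldn5 and Tek were too dim to be tested; the part of these cells in the values was not tested. Vamp7, a SNARE of late endosomes and lysosomes, had 620 and 627 in neurons and 839 and 933 in astrocytes (-0.50 ± 0.12, adjusted p = 0.00779), a call lost without either neuron array or astrocytes replicate 2. Vamp4, of the trans-Golgi network, had 750 and 742 in neurons and 775 and 775 in astrocytes (adjusted p = 0.714).

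**Figure D3:**
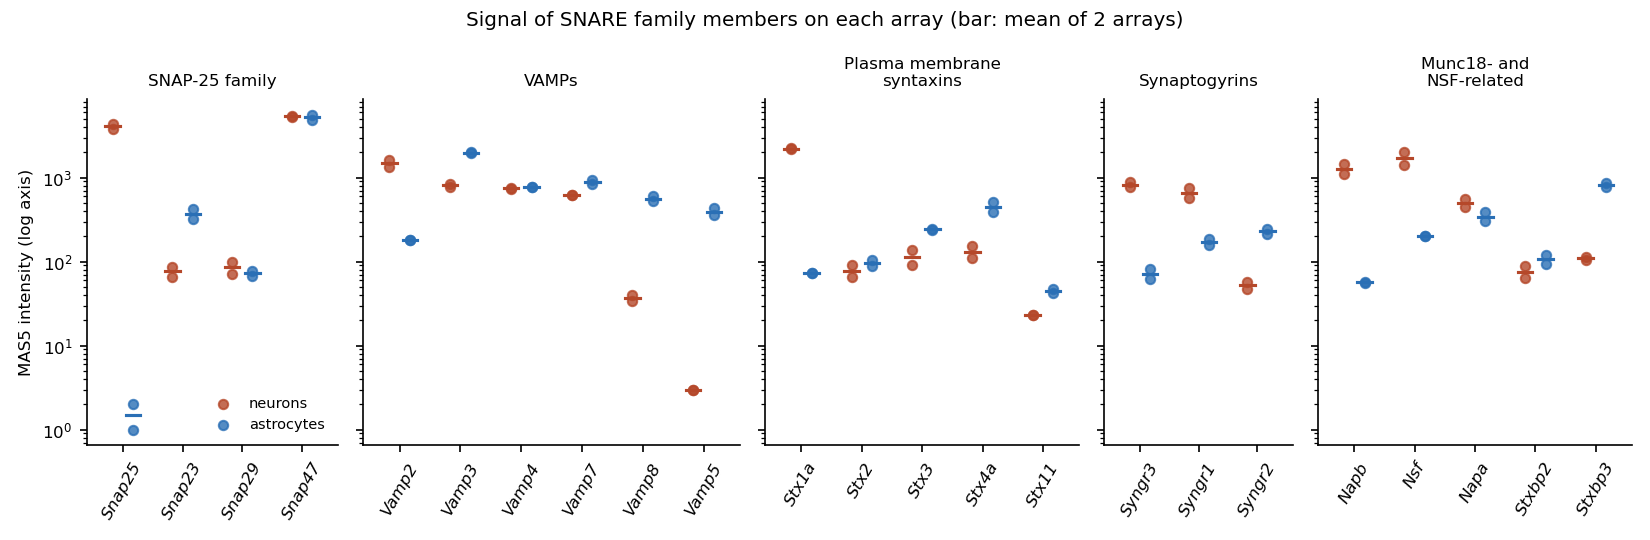
MAS5 intensity (log axis) of related SNARE, synaptogyrin and regulator genes on each of the 4 arrays, neurons left of astrocytes for each gene, with a bar at the mean of 2 arrays. Points compare the cultures within a gene; heights of different genes are not comparable. Snap25, Vamp2, Stx1a, Syngr3 and Napb lie higher in neurons, and Snap23, Vamp3, Vamp8, Vamp5, Stx4a, Syngr2 and Stxbp3 lie higher in astrocytes.

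Of the 8 syntaxins of inner membranes, 3 were called in either direction (62.2% of all genes were). Stx7 and Stx8 act together in late endosome fusion, and they differed in opposite directions. Stx7 had 1562 and 2145 in neurons and 904 and 984 in astrocytes (0.95 ± 0.16, adjusted p = 0.000975), and the call was lost without either astrocyte array. Stx8 had 213 and 262 in neurons, against 497 and 581 in astrocytes (-1.14 ± 0.16, adjusted p = 0.000332), and a second probe set agreed in sign and size (-1.19). Stx18, a SNARE of the endoplasmic reticulum, was 1.46-fold higher in astrocytes (306 and 305 in neurons, 427 and 475 in astrocytes; adjusted p = 0.00858), and missed the threshold without any 1 of 3 arrays. Only 2 of the 5 tested Stx18 probe sets were called, although all 5 had the same sign, and their average was -0.38 (limma, adjusted p = 0.0377). Stx5a, Stx6, Stx12, Stx16 and Stx17 did not pass, with log2 fold changes between -0.33 and 0.21. Stx12, of recycling endosomes, had 1574 and 2064 in neurons and 1557 and 1559 in astrocytes.

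Among regulators, complexins and the disassembly machinery lay toward neurons. Cplx1, which clamps and activates the SNARE complex, had 2302 and 2086 in neurons, against 26 and 68 in astrocytes (5.31 ± 0.29, adjusted p = 1.72e-06; 3.94 with 3 probe sets averaged). Cplx2 had 808 and 481 in neurons and 117 and 135 in astrocytes (2.20 ± 0.23, adjusted p = 6.4e-05). Both complexins were separated between the cultures (as were 81.9% of all genes), although the neuron arrays differed by more for Cplx2. Napb, the SNAP adaptor of brain, had 1466 and 1099 in neurons and 58 and 55 in astrocytes (4.22 ± 0.17, adjusted p = 4.04e-07), and its 5 tested probe sets were all called, between 2.85 and 4.95. Napa, the adaptor of all cells, had 558 and 445 in neurons, against 301 and 385 in astrocytes (0.53 ± 0.17, adjusted p = 0.0271). The Napa call was lost without any 1 array, under no filter, with probe sets averaged and when the fit had no mean-variance trend. Nsf, the ATPase that both adaptors recruit, had 2028 and 1416 in neurons and 201 and 200 in astrocytes (3.00 ± 0.17, adjusted p = 2.1e-06; 2.36 averaged).

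The Stxbp genes, which encode syntaxin-binding proteins of several unrelated kinds, were divided. Stxbp5 (tomosyn, an inhibitor of SNARE assembly) was higher in neurons, with 174 and 167 against 60 and 58 in astrocytes (1.36 ± 0.18, adjusted p = 0.000225). A second Stxbp5 probe set had 307 and 236 in neurons and 33 and 28 in astrocytes, 6.56-fold higher. Stxbp3, the Sec1-type partner of Stx4a, had 104 and 115 in neurons and 782 and 860 in astrocytes, 6.83-fold higher in astrocytes (-2.77 ± 0.14, adjusted p = 1.16e-06; -1.88 averaged). It thus lay on the same side as its partner Stx4a and as Snap23. Stxbp6 (amisyn) had 303 and 270 in neurons and 1434 and 1335 in astrocytes (-2.23 ± 0.13, adjusted p = 1.99e-06). Stxbp4, which also binds Stx4a, had 126 and 136 in neurons and 328 and 302 in astrocytes (-1.19 ± 0.15, adjusted p = 0.000212). Stxbp2 had 63 and 88 in neurons and 94 and 120 in astrocytes by its brightest probe set (adjusted p = 0.117), whereas its other 2 probe sets were called higher in astrocytes (-1.50 and -1.04).

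Of 9 tested active zone and priming genes 8 were higher in neurons (31.0% of all genes were), and Unc13b was higher in astrocytes. Unc13c and Unc13d were too dim to be tested. Rims1, a scaffold that ties vesicles to calcium channels, had 671 and 637 in neurons, against 3 and 17 in astrocytes (4.96 ± 0.29, adjusted p = 2.05e-06). The giant scaffold gene Pclo had 902 and 974 in neurons and 52 and 42 in astrocytes (4.00 ± 0.16, adjusted p = 3.54e-07). Its relative Bsn had 153 and 144 in neurons and 2 and 3 in astrocytes, at least 9.30-fold higher (adjusted p = 4.12e-06). All 3 scaffolds were far apart between the cultures, with each neuron array above each astrocyte array (the groups did not overlap for 81.9% of all genes).

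Unc13a and Unc13b encode related priming factors and went in different directions. Unc13a had 250 and 245 in neurons, against 27 and 23 in astrocytes (2.80 ± 0.19, adjusted p = 4.5e-06). Unc13b had 248 and 285 in neurons, against 372 and 335 in astrocytes (-0.39 ± 0.15, adjusted p = 0.0493), and this call was lost without any 1 array and under 4 other settings. The excess of Unc13b in astrocytes therefore stands at the edge of the threshold. Rims4 was at least 9.52-fold higher in neurons (170 and 136, against 11 and 6; 1.83 on the log2 scale with probe sets averaged), Rims3 3.72-fold (100 and 100, against 14 and 22) and Rims2 2.64-fold (390 and 460, against 154 and 151), with adjusted p of 1.31e-05, 0.000158 and 7.72e-05. By the probe sets that read the genes, the lowest fold among the RIM genes was that of Rims2, which had signals of 151 or more in astrocytes. A dimmer Rims4 probe set had a lower fold, 1.61 (65 and 55 in neurons, 35 and 30 in astrocytes).

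Of 13 tested synaptotagmins, the calcium sensors of fast release were not the only ones higher in neurons. Syt1, the sensor for synchronous release, had 4012 and 3176 in neurons, against 35 and 36 in astrocytes (6.22 ± 0.15, adjusted p = 1.1e-07; 3.94 with 4 probe sets averaged). Syt4, whose protein is found on dense-core vesicles, had 2749 and 3715 in neurons and 9 and 3 in astrocytes, at least 200-fold higher (adjusted p = 1.35e-07). Syt16, which encodes a relative with no known calcium binding, had 1147 and 945 in neurons and 7 and 1 in astrocytes, at least 65.2-fold higher (adjusted p = 2.61e-07). For all 3 genes both neuron arrays lay far above both astrocyte arrays (the groups did not overlap for 81.9% of all genes).

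Syt7, the slow high-affinity sensor, had 327 and 538 in neurons and 21 and 26 in astrocytes by the probe set with the highest mean log2 signal (3.59 ± 0.25, adjusted p = 5.33e-06). Another Syt7 probe set, brighter in neurons, had 854 and 920 there and 2 and 4 in astrocytes, at least 55.5-fold higher. Syt5, of dense-core vesicles, had 153 and 112 in neurons and 10 and 4 in astrocytes, at least 8.20-fold higher (adjusted p = 2.75e-05). Syt13 (130 and 68, against 21 and 14) and Syt9 (160 and 166, against 54 and 58), another sensor of fast release, were 3.59-fold and 2.56-fold higher in neurons, with adjusted p of 0.00095 and 0.000246. Syt13 missed the threshold without astrocytes replicate 2. Syt5, Syt7, Syt9 and Syt13 were separated between the cultures on all arrays, as were 81.9% of all genes.

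Syt11, a synaptotagmin that does not bind calcium, was bright in both cultures: 3402 and 2698 in neurons and 2001 and 1947 in astrocytes (0.61 ± 0.13, adjusted p = 0.00362). Of its 5 probe sets 4 were called higher in neurons, but the gene missed the threshold without any 1 of 3 arrays. Syt14 was 1.83-fold higher in neurons (118 and 144, against 57 and 75; adjusted p = 0.00651), also lost without any 1 of 3 arrays. Syt3, Syt6, Syt8 and Syt17 did not pass. For Syt17 the neuron arrays differed from each other (288 and 128, against 247 and 255 in astrocytes; adjusted p = 0.349), while a dimmer probe set was called higher in astrocytes (58 and 35, against 103 and 93; -0.93 ± 0.24, adjusted p = 0.01). With its probe sets averaged, Syt17 passed toward astrocytes (-0.645, adjusted p = 0.0463).

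**Figure D4:**
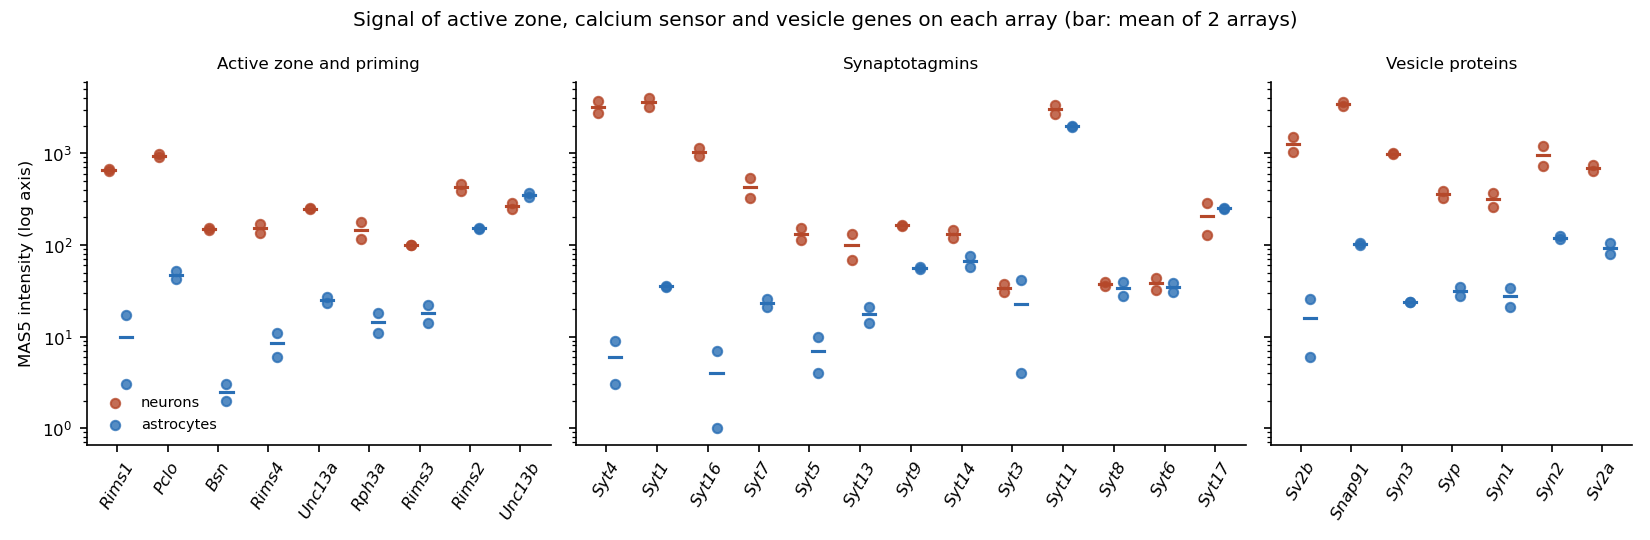
MAS5 intensity (log axis) of active zone genes, synaptotagmins and vesicle protein genes on each of the 4 arrays, neurons left of astrocytes for each gene, with a bar at the mean of 2 arrays. Points compare the cultures within a gene only. Most genes have both neuron arrays above both astrocyte arrays; Syt3, Syt8, Syt6 and Syt17 overlap, and Unc13b lies higher in astrocytes.

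Membrane and coat proteins of synaptic vesicles formed the group with the highest median. Sv2b, a transporter-like vesicle glycoprotein, had 1518 and 1031 in neurons, against 26 and 6 in astrocytes (5.57 ± 0.33, adjusted p = 2.36e-06; 4.28 averaged). Snap91, the clathrin assembly protein that retrieves vesicle membrane, had 3589 and 3314 in neurons and 105 and 100 in astrocytes (4.91 ± 0.12, adjusted p = 1.1e-07; 4.01 averaged). Sv2a had 746 and 643 in neurons and 80 and 104 in astrocytes (2.76 ± 0.17, adjusted p = 2.92e-06). Each was separated between the cultures, as were 81.9% of all genes, and the astrocyte arrays lay above background for Snap91 and Sv2a.

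The synapsins, which tether vesicles in reserve, were higher in neurons in all 3 genes. Syn3 had 976 and 1008 in neurons, against 24 and 24 in astrocytes (4.78 ± 0.15, adjusted p = 1.62e-07). The mean over both tested Syn3 probe sets was 4.00, and the dimmer of them alone had 3.21. Syn2 had 1198 and 729 in neurons and 115 and 126 in astrocytes (2.83 ± 0.22, adjusted p = 1.1e-05). Syn1 had 370 and 261 in neurons and 34 and 21 in astrocytes (3.04 ± 0.24, adjusted p = 1.25e-05). Synaptophysin (Syp), which binds Vamp2 on the vesicle, was 8.38-fold higher in neurons (387 and 326, against 35 and 28; adjusted p = 2.84e-06).

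The synaptogyrins, membrane proteins of vesicles, were divided. Syngr3, found on synaptic vesicles, had 886 and 764 in neurons, against 82 and 62 in astrocytes (3.31 ± 0.17, adjusted p = 1.21e-06). Syngr2, the form of non-neuronal cells, had 58 and 47 in neurons and 242 and 215 in astrocytes (-1.89 ± 0.18, adjusted p = 4.14e-05), with both probe sets called. Syngr1 was called in both directions. Its brightest probe set (1434661_at) had 757 and 565 in neurons and 187 and 156 in astrocytes (1.86 ± 0.18, adjusted p = 3.59e-05). Its other tested probe set (1419289_a_at) had 91 and 66 in neurons and 141 and 216 in astrocytes (-1.05 ± 0.24, adjusted p = 0.0054), and the average missed the threshold (0.40, adjusted p = 0.0603).

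Where probe sets of a gene disagreed in size, the sign usually held. Of 44 members with at least 2 tested probe sets, 39 had all of them on the same side of 0, and only Stx3 and Syngr1 were called both ways. In 9 genes the probe sets differed by more than 2 on the log2 scale: Snap25 (3.40 to 8.19), Syt1 (2.00 to 6.22), Cplx1 (1.31 to 5.31), Syn2 (1.29 to 4.37), Syngr1 (-1.05 to 1.86), Syt7 (3.01 to 5.86), Sv2b (3.00 to 5.57), Rims4 (0.69 to 2.98) and Napb (2.85 to 4.95). The second Snap25 probe set (1447763_at) had 180 and 186 in neurons and 6 and 6 in astrocytes, at least 11.5-fold higher. The fold of a gene therefore depends on the probe set read. Which transcripts these probe sets match was not analysed here.

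**Figure D5:**
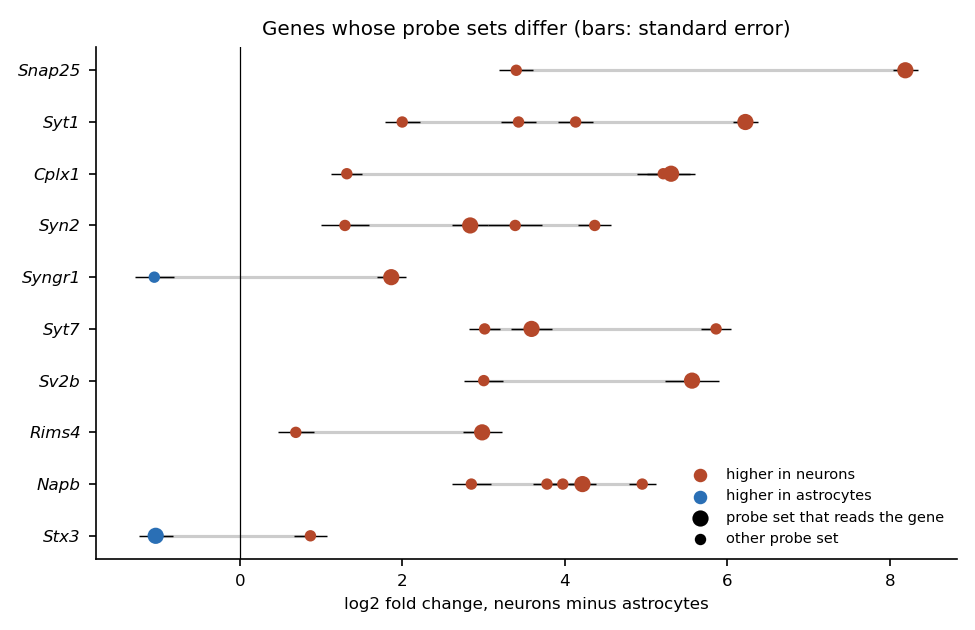
Log2 fold change, neurons minus astrocytes, of each tested probe set of the 10 genes whose probe sets were called both ways or differed by more than 2, with standard errors as bars. Large points are the probe sets that read the gene; Stx3 and Syngr1 have points on both sides of 0, and the other genes lie to the right of it.

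The 11 members without a tested probe set were Cplx3, Cplx4, Unc13c, Unc13d, Stx19, Syt2, Syt10, Syt12, Vamp1, Sv2c and Syngr4. Their 16 probe sets had no signal above 48 on any array. Several of them, such as Vamp1, Syt2 and Cplx3, are known from adult brainstem, spinal cord or retina.

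The neuron cultures differed from each other in these genes. Of the 36 members higher in neurons, 27 had the higher signal on replicate 1 and 8 on replicate 2, with a median log2 difference (replicate 1 minus replicate 2) of 0.21. Over all 3737 genes higher in neurons, 54.7% were higher on replicate 1 and the median difference was 0.03. Syt4 (2749 and 3715) went the other way. The neuron markers were divided. Tubb3, Map2, Dcx, Gap43 and Mapt were higher on replicate 2, and Rbfox3, Nefl, Nefm, Elavl3 and Elavl4 on replicate 1. The comparison of these arrays has no replicate and no test.

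The promoters of 59 of the 76 members were found by gene ID in the RefSeq windows (GRCm38.p6), which run from 250 bases before to 50 after each start. The windows were searched on both strands for the RE1 element, the known binding site of the repressor REST that marks many neuronal genes, with up to 3 of its 18 fixed letters different. They were also searched for the cyclic AMP response element, TGACGTCA, without mismatch. In Syn1, which held both, the matches did not overlap. RE1 letters stood in the windows of 31 of 27025 genes (0.115%), and 2 of these were members, Syn1 (1 letter different) and Rph3a (3 different, in 1 of its 3 windows). Both were higher in neurons; Rph3a, a Rab3 effector on vesicles, had 178 and 116 in neurons, against 11 and 18 in astrocytes (2.55 ± 0.27, adjusted p = 6.04e-05). The response element stood in the windows of 2.03% of genes and of 3 members: Syn1, Napa and Stxbp3. Of these, Syn1 and Napa were higher in neurons and Stxbp3 in astrocytes. A match of letters is a description and shows no binding. The upstream bases are printed because Syn1 holds both elements and Rph3a and Stxbp3 hold 1 each, with the matched letters in capitals, 5′ to 3′ along the gene; Syn1 is on the minus strand of chrX:20920919-20921168, its RE1 letters between positions -232 and -212 from the start and its response element between -159 and -152. The Rph3a letters lie at chr5:121009614-121009634 (minus strand of the gene, positions -96 to -76, read on the opposite strand), and those of Stxbp3 at chr3:108840603-108840610 (minus strand, positions -108 to -101).
Syn1: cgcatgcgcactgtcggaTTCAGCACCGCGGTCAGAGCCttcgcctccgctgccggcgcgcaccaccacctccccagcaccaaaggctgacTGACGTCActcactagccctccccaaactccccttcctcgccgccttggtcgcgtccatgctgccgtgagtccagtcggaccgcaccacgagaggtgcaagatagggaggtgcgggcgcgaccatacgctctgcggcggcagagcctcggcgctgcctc
Rph3a: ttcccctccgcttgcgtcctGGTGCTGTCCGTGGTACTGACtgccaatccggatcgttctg
Stxbp3: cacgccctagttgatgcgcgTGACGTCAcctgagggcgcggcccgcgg

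Genes of the same pathway outside the symbol rule were described from 3 lists. Of 42 tested genes of release and the vesicle cycle, 27 were higher in neurons and 7 in astrocytes (median log2 fold change 1.37; over all genes 31.0% and 31.1% were called in these directions). Rab3c, a small GTPase of synaptic vesicles, had 1747 and 1478 in neurons, against 11 and 15 in astrocytes, at least 101-fold higher (adjusted p = 1.35e-07). Sh3gl2 (endophilin, which shapes the retrieved membrane) had 1579 and 1285 in neurons and 21 and 13 in astrocytes (5.62 ± 0.19, adjusted p = 1.89e-07). Sytl2, a synaptotagmin-like effector of Rab27, was 21.3-fold higher in astrocytes (59 and 75 in neurons, 1679 and 1669 in astrocytes; adjusted p = 1.85e-07). Sypl, the synaptophysin-like gene of other tissues, named after its values were seen, was 3.04-fold higher in astrocytes (405 and 435 in neurons, 1352 and 1250 in astrocytes; adjusted p = 9.54e-06), on the opposite side from Syp.

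Of 24 other SNAREs and partners, 7 were higher in neurons and 7 in astrocytes (median -0.06), shares near those over all genes (31.0% and 31.1%). Stxbp5l, a second tomosyn, was at least 9.71-fold higher in neurons (156 and 154, against 9 and 3; adjusted p = 9.85e-06), and Snph, which anchors mitochondria in axons and binds Stx1a, 4.00-fold (241 and 168, against 28 and 58; adjusted p = 0.000448, and 0.0583 without neurons replicate 1). Snapin, a binding partner of Snap25, was 2.55-fold higher in astrocytes (455 and 384 in neurons, 1097 and 1076 in astrocytes, adjusted p = 4.01e-05). With its probe sets averaged, the log2 fold change of Snapin was smaller, -0.609 against -1.352, and still called. The other 6 higher in astrocytes, named after their values were seen, were Sec22b (2.24-fold), Bet1 (1.81-fold), Gosr1 (1.69-fold), Gosr2 (1.55-fold), Scfd1 (1.48-fold) and Use1 (1.39-fold). Sec22c (1.61-fold) and Bnip1 (1.75-fold), which like these act in traffic at the endoplasmic reticulum and the Golgi apparatus, were higher in neurons, and Sec22a, Bet1l, Ykt6, Scfd2 and Nbas did not pass. Napg (3.27-fold), Vps33a (1.55-fold) and Vps45 (1.36-fold), also named after their values were seen, were higher in neurons too. Averaged over its probe sets, Sec22b was at -0.465 on the log2 scale, against -1.161 by the probe set that read the gene. Bet1 missed the threshold without astrocytes replicate 1 and Use1 without any 1 of 3 arrays. Scfd1 was not called with its probe sets averaged (-0.03, adjusted p = 0.879), under 5 other settings, and reversed without the suffixed probe sets (0.51, adjusted p = 0.0624). Of 3 tested vesicle transporters, Slc32a1, which loads GABA (325 and 174 in neurons, 2 and 6 in astrocytes), was at least 14.9-fold higher in neurons, and Slc17a6, which loads glutamate (212 and 253, against 13 and 8), at least 14.5-fold, with adjusted p of 1.11e-05 and 3.71e-06.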

How the data were processed

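The data are 4 expression arrays, 2 of neuron and 2 of astrocyte cultures, hybridised with cRNA that was amplified through repeated cDNA synthesis, per the labels' protocols. The deposited table holds 1 linear intensity per probe set and array, which came from MAS5 per the submitters' processing notes (version not stated there). All values are whole numbers, and with the lowest and highest 2% set aside the array means were 149.997 to 150.002. Pairs of arrays correlated across probe sets at 0.980 (neurons) and 0.983 (astrocytes), and at 0.669 to 0.682 between cultures. Gene symbols came from the platform annotation.

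After removal of 64 control probe sets, values were taken as log2(value + 12.5), so folds of dim genes are understated; the offset is the median over arrays of the 25th percentile. A probe set needed 2 of 4 arrays at or above the array median (25019 of 45037 did, for 12040 genes), and the one with the highest mean log2 value over the 4 arrays stood for the gene; by mean intensity another probe set was higher for Napb, Stxbp5, Syn2 and Syt7. Neurons and astrocytes were compared by limma 3.58.1 (R 4.3.3; eBayes with trend, two-sided, Benjamini-Hochberg over all 25019, threshold 0.05; residual degrees of freedom 2, prior 6.27). With 4 arrays, log2 fold changes had a median standard error of 0.20. "At least" folds use intensities without the offset. In data simulated for this comparison over 25019 probe sets, 42.6% of 2-fold and 98.5% of 4-fold changes were recovered. Only 68 probe sets were changed 2-fold there, 66 were changed 4-fold and 66 were changed 8-fold. In the data, 62.2% of genes were called. The adjusted threshold was therefore stricter in the simulation, and its shares do not measure recovery in the data.

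The members, the gene lists and the background rule were chosen with earlier results of these data known. Members given with all arrays are, per role, the 3 largest called changes in the majority direction, up to 3 in the other, and the highest mean; others are added for completeness. Members whose probe sets were called both ways or spread over 2 are given by probe set. From each other list the 2 largest changes in the majority direction and the largest in the other are named; further names are marked. Alternatives changed the offset, filter, normalization, probe sets, trend, replicate block and arrays.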

Additional observations from a re-analysis of the deposited data

How the results depend on the processing

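The counts of members stayed within 1.5 times under every alternative run. Members higher in neurons numbered 36 and ranged from 29 (filter at the 75th percentile, which leaves fewer genes tested) to 36; those higher in astrocytes numbered 15 and ranged from 10 (without suffixed probe sets, or without astrocytes replicate 2) to 16 (probe sets averaged). With 1 array left out they were 32 to 34 and 10 to 12. Genes of the 3 other lists gave 36 and 14, and 29 to 32 and 11 to 13 with 1 array left out. Of 51 called members, 40 kept the call under every alternative in which they were tested. An offset 4 times as large moved the fold of 21 called members by more than 1.5 times and a quarter-size offset that of 9 (Snap25 6.33 and 9.79 on the log2 scale, Vamp5 -3.06 and -6.01), and 51 and 50 of the 51 kept the call. Quantile normalization ended no call of a member. The replicate number of the titles as a block gave 36 and 13 members; Stx11 and Unc13b lost the call. Nothing in the labels ties a number to a shared animal or day, and same-numbered deviations correlated at -0.09.

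Signs that turned belonged to members that had not passed: Snap29 with probe sets averaged (-0.036), and Snap47 (-0.056) and Syt6 (-0.012) with quantile normalization. With 1 array left out, Snap29 ranged from -0.006 to 0.394, Snap47 from -0.066 to 0.135, Stx16 from -0.092 to 0.319, Syt17 from -0.907 to 0.190, Syt3 from -0.205 to 1.492, Syt6 from -0.075 to 0.270 and Syt8 from -0.043 to 0.303. Of these, Syt17 passed without neurons replicate 1 and with probe sets averaged (-0.645; both toward astrocytes) and Syt3 without astrocytes replicate 1 (toward neurons). Outside the members, Scfd1 turned to 0.506 without suffixed probe sets. The cause was not tested. Signals near the background carry no order.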
